A study of Mus musculus with 3 samples.

Results

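The 10 genes described here encode 6 inhibitors of cyclin-dependent kinases (CDKs), the 3 D-type cyclins and the transcription factor Myc. They were taken by gene symbol among the protein-coding genes of a read count table of 56748 genes, and 10 of 10 were found and reached 1 CPM (counts scaled to library size as described under the processing) in at least 1 library. The cells were fibroblasts of visceral adipose tissue from WT mice fed a high-fat diet (HFD), isolated as cells of the stromal vascular fraction that were negative for CD45, CD31 and Ter119, which are surface markers of leukocytes, endothelial cells and red cells. One library came from cells given vehicle (labelled as the control, with no time stated), 1 from cells given recombinant mouse oncostatin M (Osm, a cytokine of the interleukin 6 family) and 1 from cells given transforming growth factor beta 1 (TGF-beta1, recombinant human protein), each ligand at 3 ng/mL for 24 h. The number of animals behind each culture is not stated. With 1 library per condition there is no estimate of the spread between cultures and no p-value. Each interval below is an exact 95% interval of a count or of a ratio of 2 counts, which compares libraries and covers counting error only.

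CDKs drive a cell from rest into DNA synthesis once they are bound by a cyclin. D cyclins, made from Ccnd1, Ccnd2 and Ccnd3, activate Cdk4 and Cdk6, which phosphorylate the retinoblastoma protein and so release the E2F factors that switch on S-phase genes. Proteins of the Ink4 family (here Cdkn2a, Cdkn2b and Cdkn2c, without Cdkn2d) bind Cdk4 and Cdk6 and keep D cyclins off them. Proteins of the Cip/Kip family (Cdkn1a, Cdkn1b, Cdkn1c) instead bind cyclin-CDK complexes and block mainly those with Cdk2. In epithelial cells, TGF-beta is known to stop growth by inducing Cdkn2b and Cdkn1a and repressing Myc and the Id genes, while in fibroblasts it can act as a mitogen. Cytokines that signal through gp130 and Stat3 are known to act on Myc, D cyclin and CDK inhibitor genes in several cell types.

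The 4 stretches of 250 bases upstream of a transcription start below are shown because Cdkn1a and Cdkn2b are the inhibitor genes through which TGF-beta is known to arrest epithelial cells, and because the single count of Cdkn2a covers transcripts from a pair of separate starts. They are RefSeq promoter sequences of build GRCm38.p6, an earlier build than that of the count table, written 5′ to 3′ on the strand of the gene, with the GC box GGGCGG (either strand), a binding motif of the Sp1 factors that cooperate with Smads, in capitals. RefSeq promoter entries were matched for 6 of the 10 genes, not for Cdkn1c, Ccnd1, Ccnd2 and Myc. The Cdkn1a stretch, 1 of 2 RefSeq starts of the gene, lies at chr17:29093519-29093768 (plus strand), that of Cdkn2b at chr4:89311033-89311282 (minus strand), and those of Cdkn2a at chr4:89294620-89294869 and chr4:89282193-89282442 (minus strand). The former of the Cdkn2a starts gives the transcript for p19Arf, which stabilises p53, and the latter that for the CDK inhibitor p16Ink4a.
Cdkn1a: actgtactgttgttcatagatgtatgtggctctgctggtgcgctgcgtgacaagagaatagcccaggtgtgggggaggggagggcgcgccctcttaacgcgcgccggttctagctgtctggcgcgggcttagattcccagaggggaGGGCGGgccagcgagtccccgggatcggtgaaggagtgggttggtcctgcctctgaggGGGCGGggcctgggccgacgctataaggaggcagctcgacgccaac
Cdkn2b: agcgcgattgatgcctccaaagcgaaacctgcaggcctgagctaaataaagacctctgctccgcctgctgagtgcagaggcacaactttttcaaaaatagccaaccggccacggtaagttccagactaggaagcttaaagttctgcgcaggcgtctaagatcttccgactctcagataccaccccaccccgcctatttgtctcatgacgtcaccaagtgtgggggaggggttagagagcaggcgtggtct
Cdkn2a, p19Arf start: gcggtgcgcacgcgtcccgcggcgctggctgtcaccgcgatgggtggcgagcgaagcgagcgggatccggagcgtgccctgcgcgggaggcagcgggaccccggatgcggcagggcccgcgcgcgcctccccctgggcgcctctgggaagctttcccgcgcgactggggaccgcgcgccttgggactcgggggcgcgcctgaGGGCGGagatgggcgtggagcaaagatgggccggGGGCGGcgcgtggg
Cdkn2a, p16Ink4a start: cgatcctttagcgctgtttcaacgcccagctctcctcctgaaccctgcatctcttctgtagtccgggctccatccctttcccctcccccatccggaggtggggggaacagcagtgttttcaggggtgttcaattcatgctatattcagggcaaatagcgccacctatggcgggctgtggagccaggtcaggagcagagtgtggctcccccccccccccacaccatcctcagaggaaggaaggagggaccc
The GC box occurred 2 times in the Cdkn1a stretch, 2 times at the p19Arf start and 0 times in the other 2, where 32.7% of 32851 promoter stretches of this length held at least 1. The other Cdkn1a start, at chr17:29090729-29090978 and not printed here, held 0 GC boxes. On either strand, the GC-rich Smad motif GGCGCC and the E2F core (TTTGGCG or TTTCCCG) each occurred 1 time at the p19Arf start. The E-box CACGTG bound by Myc and the Stat motif TTCNNNGAA occurred in none of these 4 stretches. Of all stretches, 9.59% held the Smad motif, 3.92% the E2F core, 6.02% the E-box and 7.02% the Stat motif. No GC box overlapped another of the searched motifs. A match describes the letters of these windows and says nothing of binding in these cells.

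Counted reads numbered 18336068 for vehicle, 17319872 for Osm and 18533741 for TGF-beta1, and the limit that a count of 0 allows was 0.163, 0.173 and 0.163 CPM, respectively. Of 10 fibroblast markers all 10 passed 1 CPM, with a summed level of 22263 CPM for vehicle, 22426 for Osm and 25356 for TGF-beta1. The higher sum with TGF-beta1 came from the collagen genes Col1a1 (4285 CPM with vehicle, 8039 with TGF-beta1) and Col1a2 (4302 and 5720) and from Vim (2325 and 2662). Of the 10 markers 7 were below vehicle, with a median log2 ratio of -0.20. Among all tested genes, those that reached 1 CPM in any library, 51.3% were above vehicle. At least 1.5-fold lower were 4 of 10 (9.53% of all tested genes), Dcn by 2.41-fold, Dpt by 1.84-fold, Pdgfra by 1.62-fold and Lum by 1.59-fold. Summed leukocyte markers were at 19.1, 16.1 and 15.0 CPM (3 of 10 at 0 in every library), endothelial markers at 8.15, 6.68 and 3.47 CPM (2 of 7 at 0) and erythroid markers at 0.109, 0 and 0.109 CPM (6 of 7 at 0). Mural markers summed to 60.5, 58.9 and 124.3 CPM, where Cspg4 alone went from 8.53 CPM with vehicle to 74.9 with TGF-beta1. The 6 tested mural markers split into 3 above and 3 below vehicle with TGF-beta1, with a median log2 ratio of -0.06. Summed levels were 43.2, 41.9 and 51.7 CPM for mesothelial markers, 11.6, 8.87 and 7.32 CPM for adipocyte markers and 12.4, 11.4 and 12.2 CPM for Schwann cell markers. The part of these differences in the results on cell cycle genes was not tested. In bulk RNA, fewer cells expressing a gene and less of its RNA per cell cannot be told apart.

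By the gene lengths deposited with the counts, Cdkn1a and Ccnd2 led the 10 genes per length in each library, and they changed places with TGF-beta1. These lengths were 3553 bases for Cdkn1a and 9409 for Ccnd2, and the longest GENCODE M21 transcripts of both genes were shorter. Orders, sums and shares per length rest on the deposited lengths, could differ with others, and were not tested with others. On the scale of CPM per kb of gene length, the vehicle library held Cdkn1a at 55.2, Ccnd2 at 39.4, Myc at 23.3, Cdkn2b at 15.6, Cdkn2c at 12.7 and Cdkn1b at 12.2. The lower 4 were Ccnd3 at 6.39, Cdkn2a at 4.17, Ccnd1 at 3.72 and Cdkn1c at 2.21 CPM per kb. The counting intervals of neighbours in this order overlapped for Cdkn2c and Cdkn1b and for Cdkn2a and Ccnd1 and were apart for the others. With Osm the order was the same but for Cdkn1b and Cdkn2c, which exchanged places. Intervals of neighbours overlapped there from Cdkn2b through Cdkn1b to Cdkn2c and from Cdkn2a through Ccnd1 to Cdkn1c. With TGF-beta1 and the deposited lengths, Ccnd2 at 56.2 CPM per kb (55.1 to 57.3) lay above Cdkn1a at 52.6 CPM per kb (50.8 to 54.4). These intervals do not cover the choice of length. The places of the other 8 genes were those of the vehicle library. Cdkn2b, Cdkn2c and Cdkn1b overlapped each with the next, as did Cdkn2a and Ccnd1.

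**Figure D1:**
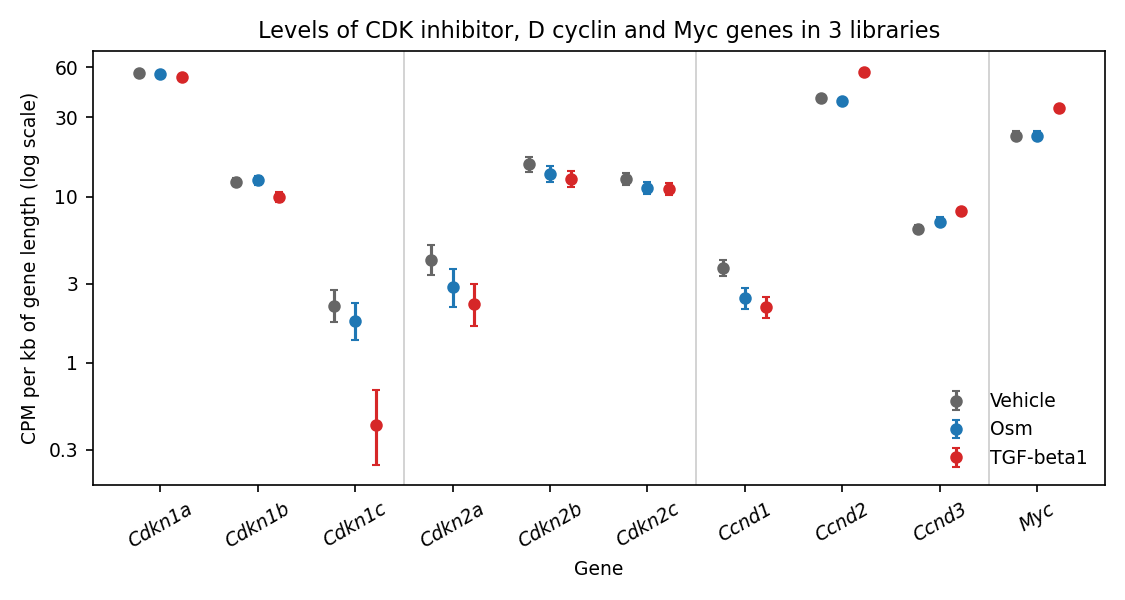
Level of each gene in CPM per kb of gene length (log scale) with vehicle, Osm and TGF-beta1, 1 library each, with exact 95% counting intervals as bars; grey lines separate Cip/Kip inhibitors, Ink4 inhibitors, D cyclins and Myc. Ccnd2 goes from 39.4 with vehicle to 56.2 with TGF-beta1, while Cdkn1c goes from 2.21 to 0.426.

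All 3 Cip/Kip inhibitor genes were lower with TGF-beta1 than with vehicle, by very unequal amounts, and with Osm none of the 3 differed from vehicle beyond counting error. Cdkn1a encodes p21, the inhibitor through which p53 halts the cycle (ENSMUSG00000023067, chromosome 17, 29309950 to 29319701, build mm39). Cdkn1a was at 196.0 CPM with vehicle, 194.4 with Osm and 186.8 with TGF-beta1, so that the 3 libraries were close to each other. It was 1.05-fold lower with TGF-beta1 (1.00 to 1.10), at the edge of counting error: with DESeq2 size factors in place of TMM scaling the interval included 1 (0.999 to 1.10). Osm differed from vehicle by 1.01-fold (0.962 to 1.06). The gene thus showed no increase with TGF-beta1 in these libraries. The gene model 1700023B13Rik, on the opposite strand, had 27 counts for vehicle, 54 for Osm and 7 for TGF-beta1, against 3606, 3373 and 3444 for Cdkn1a.

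Cdkn1b encodes p27, which holds resting cells out of the cycle (ENSMUSG00000003031, chromosome 6, 134897364 to 134902476). It was at 55.7 CPM with vehicle, 57.0 with Osm and 45.1 with TGF-beta1, the lowest of the 3 libraries. Its level was 1.23-fold lower with TGF-beta1 (1.13 to 1.35) and 1.02-fold higher with Osm (0.938 to 1.12). No annotated gene overlaps it. Cdkn1c encodes p57, an inhibitor made from an imprinted gene and typical of resting, differentiated cells (ENSMUSG00000037664, chromosome 7, 143012076 to 143014787). It had 83 counts (4.51 CPM) with vehicle, 63 counts (3.63 CPM) with Osm and 16 counts (0.868 CPM) with TGF-beta1. The TGF-beta1 library stood apart from the other 2: Cdkn1c was 5.07-fold lower than with vehicle (3.02 to 9.51), while Osm was 1.24-fold lower (0.885 to 1.75), within counting error. This was the largest difference from vehicle among the 10 genes, at a low level. The long noncoding gene Gm44732 on its opposite strand had 7, 3 and 0 counts, and whether counting used strand is not stated.

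The Ink4 inhibitor genes were lower than vehicle in both treated libraries, 3 of 3 with Osm and 3 of 3 with TGF-beta1, with the interval of Cdkn2b for Osm including 1. Only Cdkn2a differed by 1.5-fold or more, with TGF-beta1. Cdkn2b encodes p15, the inhibitor that TGF-beta is known to induce in epithelial cells (ENSMUSG00000073802, chromosome 4, 89224536 to 89229276). It was at 21.7 CPM with vehicle, 19.1 with Osm and 17.8 with TGF-beta1, and thus lowest with the ligand known to induce it elsewhere. Cdkn2b was 1.22-fold lower with TGF-beta1 (1.05 to 1.42) and 1.14-fold lower with Osm (0.983 to 1.32). The noncoding gene Gm12610, which spans it on the opposite strand, had 13 counts for vehicle, 12 for Osm and 4 for TGF-beta1, against 400, 331 and 328 for Cdkn2b.

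Cdkn2c encodes p18 (ENSMUSG00000028551, chromosome 4, 109518073 to 109524386). It was at 34.2 CPM with vehicle, 30.4 with Osm and 29.8 with TGF-beta1, and the treated libraries lay together below vehicle. Cdkn2c was 1.15-fold lower with TGF-beta1 (1.02 to 1.29) and 1.13-fold lower with Osm (1.00 to 1.27). Cdkn2a, the gene of p16Ink4a and p19Arf whose products accumulate in senescent cells (ENSMUSG00000044303, chromosome 4, 89192708 to 89212890), had 90, 58 and 49 counts with vehicle, Osm and TGF-beta1. These counts correspond to 4.89, 3.34 and 2.66 CPM, with vehicle the highest. Cdkn2a was 1.83-fold lower with TGF-beta1 (1.29 to 2.66) and 1.46-fold lower with Osm (1.04 to 2.07). No annotated gene overlaps Cdkn2a, and the noncoding gene on the opposite strand of Cdkn2c had at most 7 counts. A count per gene does not separate the transcripts from the 2 starts printed above. Summed over these 3 Ink4 genes, the level per length was 32.6, 27.9 and 26.2 CPM per kb with vehicle, Osm and TGF-beta1.

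The 3 D cyclin genes did not move together. Ccnd2 and Ccnd3 were higher with TGF-beta1 and Ccnd1 was lower, and with Osm the clearest difference was the lower Ccnd1. Ccnd2 (ENSMUSG00000000184, chromosome 6, 127102125 to 127129156), the most abundant D cyclin gene here, was at 370.5 CPM with vehicle, 354.2 with Osm and 528.5 with TGF-beta1. Only the TGF-beta1 library stood above vehicle. Ccnd2 was 1.43-fold higher with TGF-beta1 (1.38 to 1.47) and 1.05-fold lower with Osm (1.01 to 1.08). The noncoding genes 9330179D12Rik and Gm43126, which overlap Ccnd2 on the opposite strand, had at most 22 counts in any library, against 6146 or more for Ccnd2.

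Ccnd3 (ENSMUSG00000034165, chromosome 17, 47815976 to 47910616) was at 56.0 CPM with vehicle, 62.1 with Osm and 71.4 with TGF-beta1. Both treated libraries were above vehicle, by 1.11-fold with Osm (1.02 to 1.21) and by 1.27-fold with TGF-beta1 (1.17 to 1.38). Bysl, a ribosome assembly gene that overlaps 361 bases of Ccnd3 on the opposite strand, was at 32.3, 35.2 and 49.5 CPM in the same order, 1.53-fold higher with TGF-beta1 (1.38 to 1.70). The part of reads from Bysl in the Ccnd3 difference was not tested. Of the sampled 50-base windows of its longest transcript, 2.89% occurred in a transcript of another gene, and none did for the other 9 genes.

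Ccnd1, the D cyclin gene most often named as a target of growth factors (ENSMUSG00000070348, chromosome 7, 144483668 to 144493662), was the least abundant of the 3, at 17.5 CPM with vehicle, 11.5 with Osm and 10.2 with TGF-beta1. Both treated libraries lay below vehicle and close to each other. Ccnd1 was 1.52-fold lower with Osm (1.27 to 1.82) and 1.71-fold lower with TGF-beta1 (1.43 to 2.06). LTO1, a gene of iron-sulfur protein maturation and ribosome making, overlaps 1771 bases of Ccnd1 on the opposite strand, with 438 counts for vehicle, 358 for Osm and 356 for TGF-beta1, against 322, 200 and 188 for Ccnd1. LTO1 was itself 1.15-fold lower with Osm (1.00 to 1.33) and 1.23-fold lower with TGF-beta1 (1.07 to 1.42), less than Ccnd1. If reads were counted without strand, those from the shared stretch cannot be assigned, so the level of Ccnd1 is uncertain. Summed per length, D cyclins were at 49.5, 47.2 and 66.5 CPM per kb with vehicle, Osm and TGF-beta1, of which Ccnd2 made up 79.6%, 79.8% and 84.5%.

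Myc, which drives ribosome making and cell growth and is classically repressed by TGF-beta in epithelial cells, was higher with TGF-beta1 (ENSMUSG00000022346, chromosome 15, 61857240 to 61862223). Vehicle and Osm each had it at 63.3 CPM and TGF-beta1 at 92.5 CPM, so that the first 2 libraries differed by less than counting error. Myc was 1.46-fold higher with TGF-beta1 than with vehicle (1.36 to 1.58), while the ratio of Osm to vehicle was 1.00 (0.920 to 1.09). No annotated gene overlaps Myc.

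**Figure D2:**
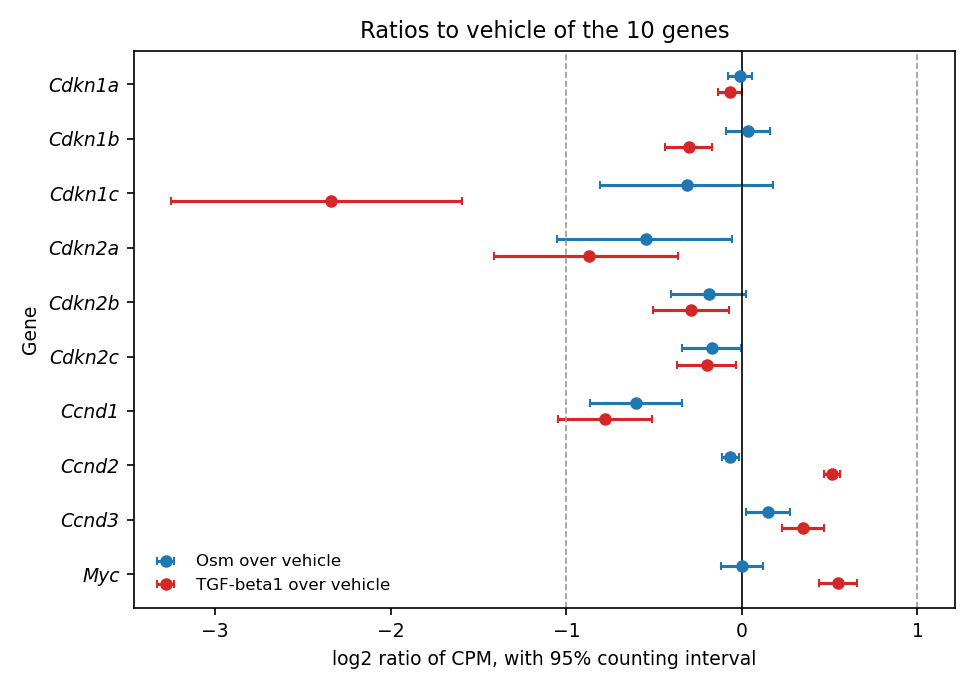
The log2 ratio of CPM to vehicle for each gene, Osm in blue and TGF-beta1 in red, 1 library per condition, with the exact 95% counting interval as bars; dashed lines mark a 2-fold difference. With TGF-beta1 all 6 inhibitor genes and Ccnd1 lie below 0 and Ccnd2, Ccnd3 and Myc above it, and only Cdkn1c is beyond 2-fold.

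Most of these differences were modest. A gene was counted as past a fold when its log2 ratio reached that fold and its counting interval excluded a ratio of 1. With TGF-beta1, 1 of the 10 genes, Cdkn1c, was at least 2-fold lower than with vehicle, where 4.79% of 13712 tested genes were, and 0 of 10 were at least 2-fold higher, where 2.27% were. At 1.5-fold, 3 of 10 were lower with TGF-beta1 (Cdkn1c, Cdkn2a and Ccnd1; 9.53% of tested genes) and 0 of 10 higher (6% of tested genes). Counting only whether the interval excluded 1, 3 of 10 were higher (27.8% of tested genes) and 7 of 10 lower (24.2%), a rule that smaller ratios pass at higher counts. The 7 include Cdkn1a, whose interval included 1 with DESeq2 size factors. With Osm, 0 of 10 were 2-fold higher and 0 of 10 2-fold lower than with vehicle, where 0.948% and 0.649% of tested genes were. At 1.5-fold, 1 of 10 was lower with Osm, Ccnd1 (1.66% of tested genes), and 0 of 10 were higher (2.1%). The interval excluded 1 for 1 of 10 higher, Ccnd3, and for 4 of 10 lower, Cdkn2a, Cdkn2c, Ccnd1 and Ccnd2 (10.9% and 10.6% of tested genes).

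The median log2 ratio of the 6 inhibitor genes was -0.30 for TGF-beta1 over vehicle, with 6 of 6 below 0, and -0.18 for Osm over vehicle, with 5 of 6 below 0. Over all tested genes the median was 0.013 for TGF-beta1 and 0.0021 for Osm, with 51.3% and 50.6% of genes above 0. Summed per length, the 6 inhibitors were at 102.2 CPM per kb with vehicle, 96.9 CPM per kb with Osm and 89.1 CPM per kb with TGF-beta1. Cdkn1a made up 54.0%, 56.5% and 59.0% of these sums, so the large fold of the scarce Cdkn1c weighed little in them.

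**Figure D3:**
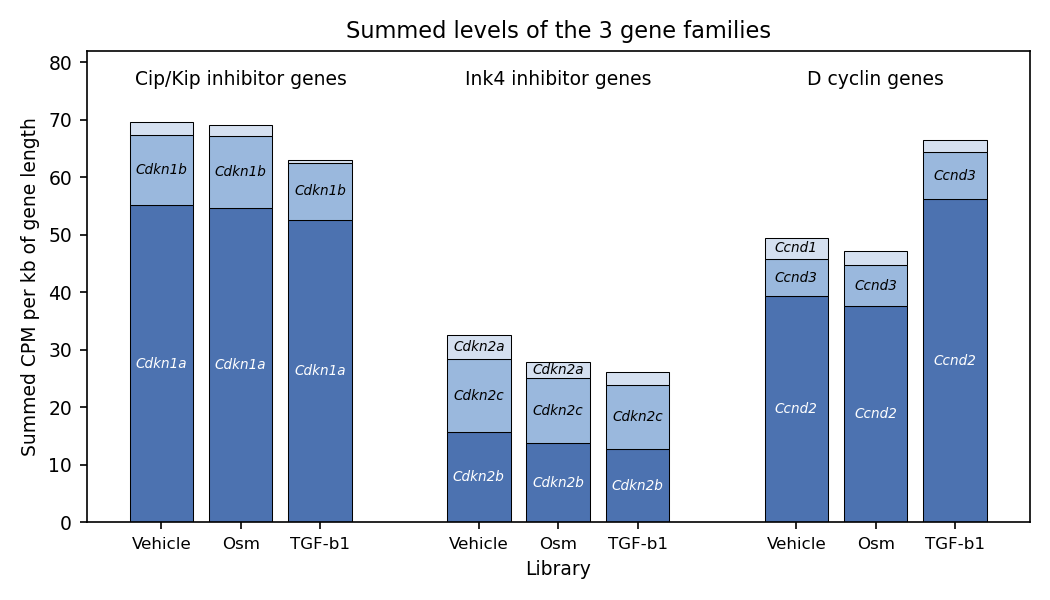
Stacked bars of CPM per kb of gene length for the Cip/Kip inhibitor, Ink4 inhibitor and D cyclin genes in each of the 3 libraries, starting at 0; the uppermost segments, some too thin to name, are Cdkn1c, Cdkn2a and Ccnd1 from left to right. The D cyclin sum is highest with TGF-beta1 (66.5 against 49.5 with vehicle), where both inhibitor sums are lowest.

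Set against each other, the Osm and TGF-beta1 libraries differed most in Cdkn1c, which was 4.08-fold higher with Osm (2.39 to 7.76). It was the only 1 of the 10 genes at least 2-fold higher with Osm than with TGF-beta1 (5.08% of tested genes), and 0 of 10 were at least 2-fold lower (2.42%). At 1.5-fold the count was 1 of 10 higher, again Cdkn1c (9.93% of tested genes), and 0 of 10 lower (6.16%). Ccnd2, at 1.49-fold lower with Osm than with TGF-beta1 (1.45 to 1.54), lay just short of that fold, and DESeq2 size factors moved it past. Myc was 1.46-fold lower with Osm (1.35 to 1.58), Ccnd3 1.15-fold lower (1.06 to 1.25) and Cdkn1b 1.26-fold higher (1.15 to 1.39). For Cdkn1a, Cdkn2a, Cdkn2b, Cdkn2c and Ccnd1 the interval included 1. This comparison shares its libraries with those to vehicle and is not independent of them.

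The partners of these genes were described by lists, beginning with the kinases they act on. Each list is read against all tested genes, of which 2.27% were at least 2-fold higher and 4.79% lower with TGF-beta1 than with vehicle, 6% at least 1.5-fold higher and 9.53% lower, and 51.3% above 0. Of 17 tested CDKs, other cyclins, Cdc25 phosphatases and other inhibitors, 2 were at least 2-fold higher with TGF-beta1 than with vehicle (2.27% of all tested genes) and 0 lower (4.79%), with a list median log2 ratio of 0.23. The 2 were Ccne2, a cyclin of Cdk2 (1.09 CPM with vehicle, 2.55 CPM with TGF-beta1), and the phosphatase gene Cdc25c (0.272 and 1.19 CPM), both at low levels and named after their values were seen. At 1.5-fold, 4 of 17 were higher with TGF-beta1 (6% of all tested genes) and 0 lower (9.53%). Cdk4, the main partner of D cyclins, was at 179.4, 180.6 and 169.6 CPM with vehicle, Osm and TGF-beta1, 1.06-fold lower with TGF-beta1 (1.01 to 1.11), and is overlapped on the opposite strand by Tspan31, at 106.0, 109.9 and 122.7 CPM. Cdk7, the kinase that activates other CDKs, was 1.10-fold higher (0.994 to 1.21). Ccna2, the S-phase cyclin, was at 4.95, 3.92 and 9.44 CPM, 1.90-fold higher with TGF-beta1 (1.47 to 2.49), but Exosc9 on its opposite strand, at 28.3, 28.4 and 32.7 CPM, was above it in every library.

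Downstream of the D cyclins, the Rb and E2F list had a median of 0.16 with TGF-beta1, with 1 of 20 at least 2-fold higher (2.27% of all tested genes) and 0 lower (4.79%). A single gene of 20 is little to set against that share. It was E2f7, an E2F repressor, at a low level of 0.870 and 2.82 CPM with vehicle and TGF-beta1, named after its values were seen. The abundant Rbbp4, a histone-binding subunit of Rb complexes, and Tfdp1, a partner of the E2Fs, were 1.12-fold lower and 1.02-fold higher, with 24.1% of Tfdp1 windows shared with another gene. The E2F-driven S-phase genes had a median of 0.47 with TGF-beta1, with 27 of 30 above 0 (51.3% of all tested genes), 8 of 30 at least 1.5-fold higher (6%) and 0 lower (9.53%). At 2-fold, 2 of 30 were higher (2.27%). They were Uhrf1, a cofactor of DNA methylation (2.13-fold, 1.66 to 2.76, with 18.6% of windows shared), and Prim1, a DNA primase subunit at 1.03 and 2.88 CPM, the latter named after its values were seen. Rrm1, a subunit of ribonucleotide reductase, was at 53.4, 49.6 and 90.7 CPM with vehicle, Osm and TGF-beta1, and Dnmt1, the maintenance DNA methyltransferase, at 71.5, 79.2 and 75.6 CPM. The G2 and mitosis genes had a median of 0.54 with TGF-beta1, with 22 of 25 above 0 (51.3% of all tested genes), 12 of 25 at least 1.5-fold higher (6%), 2 of 25 at least 2-fold higher (2.27%) and 0 lower at 1.5-fold (9.53%). Top2a, the mitotic topoisomerase, was 1.67-fold higher (1.40 to 2.01) and Anln, a protein of the cleavage furrow, 1.53-fold higher (1.28 to 1.83). The 2 past 2-fold, Bub1 and Knl1, were at 2.22 and 3.31 CPM with TGF-beta1 and were named after their values were seen.

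With Osm, the medians of these lists were -0.13 for CDKs and other cyclins, -0.07 for Rb and E2F genes, 0.09 for S-phase genes and 0.15 for G2 and mitosis genes, with 0 members of any of the 4 lists past 2-fold in either direction with an interval excluding 1 (0.948% of all tested genes higher, 0.649% lower). At 1.5-fold, 2 of 17 CDK and cyclin genes were higher with Osm (2.1% of all tested genes) and 1 of 17 lower (1.66%). They were Ccne1, the other E cyclin gene (1.87-fold, 1.19 to 3.02), and Cdkn3, a phosphatase gene (1.65-fold, 1.03 to 2.72), and, on the lower side, the mitotic cyclin gene Ccnb1 (1.64-fold, 1.12 to 2.45), all under 5 CPM. Of the S-phase genes 2 of 30 were at least 1.5-fold higher, the replication helicase gene Cdc45 (1.61-fold, 1.05 to 2.54) and the chromatin assembly gene Chaf1a (1.53-fold, 1.21 to 1.96), and 0 lower. These 5 genes were named after their values were seen. Of them, Ccne1 (1.92-fold, 1.23 to 3.08), Cdc45 (1.63-fold, 1.06 to 2.55) and Chaf1a (1.48-fold, 1.17 to 1.89) were also higher with TGF-beta1 than with vehicle. Cdkn3 was 1.20-fold lower (0.683 to 2.13) and Ccnb1 1.17-fold higher (0.851 to 1.62) with TGF-beta1, within counting error. Of the Rb and E2F list and of the G2 and mitosis list, 0 passed 1.5-fold with Osm. Osm against TGF-beta1 gave medians of -0.15, -0.18, -0.36 and -0.50 for the same lists. There Ccna2 was 2.40-fold lower with Osm (1.81 to 3.24), the replication licensing gene Mcm5 2.25-fold lower (1.75 to 2.95) and Rrm2, the other ribonucleotide reductase subunit, 2.07-fold lower (1.65 to 2.64).

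Genes known as Myc targets in ribosome making and growth were above vehicle with TGF-beta1 in 30 of 30 cases (51.3% of all tested genes), with a median of 0.51 and 10 of 30 at least 1.5-fold higher (6%). At 2-fold, 1 of 30 was higher, near the 2.27% of all tested genes. That 1 was Odc1, the first enzyme of polyamine synthesis, at 84.6, 97.4 and 236.5 CPM with vehicle, Osm and TGF-beta1 (2.79-fold higher with TGF-beta1, 2.64 to 2.96). It is uncertain, since 42.1% of its windows occur in transcripts of other genes. Ncl, which encodes the nucleolar protein nucleolin, was at 348.7, 340.7 and 498.9 CPM, 1.43-fold higher with TGF-beta1 (1.39 to 1.48), and Eif4a1, a translation initiation helicase with 33.7% of windows shared, was 1.18-fold higher (1.14 to 1.22). With Osm the list median was 0.06, with 20 of 30 above 0 (50.6% of all tested genes) and 0 of 30 past 1.5-fold (2.1% higher, 1.66% lower). Among 11 tested Myc partners and antagonists the median was -0.28 with TGF-beta1, with 8 of 11 below 0, where 51.3% of all tested genes were above 0. Mxd4, which competes with Myc for their shared partner Max, was at 150.4, 146.4 and 87.9 CPM, 1.71-fold lower with TGF-beta1 (1.61 to 1.82). Mga, another Max-binding factor, was 1.00-fold vehicle (0.941 to 1.07). Mycn, a relative of Myc, was the 1 of 11 at least 2-fold higher (2.27% of all tested genes), at 0.543 and 1.46 CPM, and was named after its values were seen.

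Of 24 tested p53 genes and targets, the group that Cdkn1a belongs to, the median was -0.012 with TGF-beta1 and -0.033 with Osm. With TGF-beta1, 2 of 24 were at least 2-fold higher (2.27% of all tested genes) and 0 lower (4.79%): Plk2, a stress-induced kinase, at 103.5, 91.4 and 237.0 CPM (2.29-fold, 2.17 to 2.42), and Pmaip1, a pro-apoptotic gene at 1.85 and 4.29 CPM, named after its values were seen. At 1.5-fold these 2 of 24 were higher (6%) and 3 of 24 lower (9.53%). The lower genes, named after their values were seen, were Trp53inp1, a stress-response gene (152.0 CPM with vehicle, 82.6 with TGF-beta1; 1.84-fold, 1.73 to 1.96), Ddit4l (1.80-fold, 1.43 to 2.30) and the antiproliferative gene Btg2 (1.56-fold, 1.29 to 1.90). Ccng1, the most abundant of the list, was 1.01-fold lower (0.975 to 1.06). Of 17 cytostatic effectors of TGF-beta and their factors, 3 were at least 2-fold lower with TGF-beta1 (4.79% of all tested genes) and 0 higher (2.27%), with a median of -0.16. All 3 were Id genes, which encode inhibitors of differentiation factors and are known to be repressed in the arrest of epithelial cells. Id3 was at 51.6, 50.5 and 16.4 CPM with vehicle, Osm and TGF-beta1 (3.13-fold lower, 2.75 to 3.58), Id4 was 2.57-fold lower (1.96 to 3.43) and Id1 2.12-fold lower (1.74 to 2.60). Ski, a Smad corepressor, and Cebpb, a factor that acts with Smads on Cdkn2b, were 1.01-fold lower (0.969 to 1.06) and 1.06-fold lower (1.00 to 1.13), and Cebpb was 1.29-fold higher with Osm (1.22 to 1.36). Cebpb is overlapped on the opposite strand by Peds1, at 44.9, 45.8 and 43.0 CPM.

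Genes for the turnover of these proteins had a median of 0.08 with TGF-beta1, with 1 of 20 at least 2-fold higher, beside 2.27% of all tested genes, and 0 lower (4.79%). It was Dtl, the receptor of the ligase that degrades p21 in S phase, at 1.25 and 3.85 CPM with vehicle and TGF-beta1, named after its values were seen. Cks2, which binds CDKs, was 1.74-fold higher (1.26 to 2.44), with 29.2% of its windows shared. Ddb1, a subunit of ubiquitin ligases, and Huwe1, itself a ubiquitin ligase, were 1.09-fold and 1.05-fold higher. Upstream of Myc and the D cyclins, the 21 gp130/Stat3 and AP-1 genes had medians of 0.08 with Osm and -0.10 with TGF-beta1. Past 2-fold were 0 of 21 with Osm (0.948% of all tested genes higher, 0.649% lower). With TGF-beta1 the count was also 0 of 21 (2.27% higher, 4.79% lower). At 1.5-fold 2 of 21 were higher with Osm (2.1% of all tested genes). With TGF-beta1 1 of 21 was lower, below the 9.53% of all tested genes. Lifr was the lower gene, at 86.4 CPM with vehicle and 44.0 with TGF-beta1 (1.96-fold, 1.80 to 2.14). Of the 2 higher with Osm, Bcl3 was at 18.4 CPM with vehicle and 27.8 with Osm (1.51-fold, 1.31 to 1.74). Lifr and Bcl3 were named after their values were seen. Jak1, the kinase bound to gp130, was at 567.2, 597.1 and 405.0 CPM with vehicle, Osm and TGF-beta1, 1.40-fold lower with TGF-beta1 (1.36 to 1.44), and Il6st, the gp130 gene itself, was 1.19-fold lower (1.16 to 1.22).

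**Figure D4:**
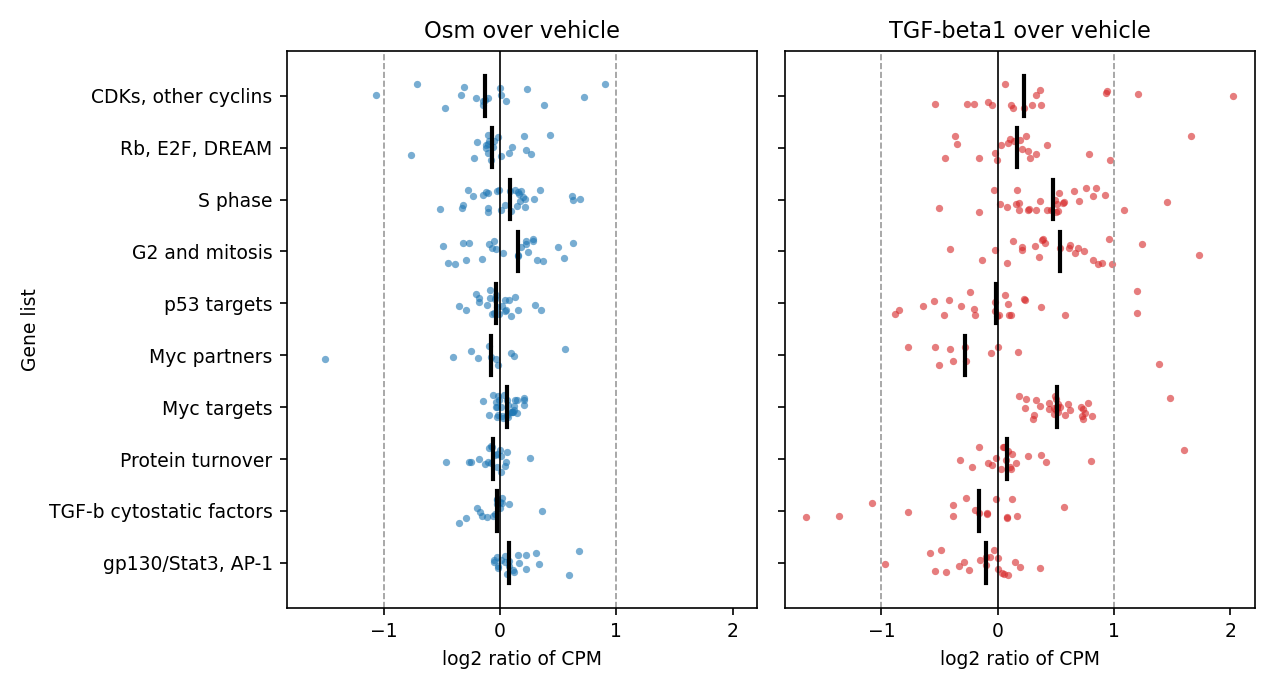
The log2 ratio of CPM to vehicle for every tested gene of the 10 pathway lists (points), with the list median as a black bar, Osm on the left and TGF-beta1 on the right; dashed lines mark 2-fold, points are spread vertically only for legibility, and the Osm points of Mycn and Cdc25c beyond the line have intervals that include 1. With TGF-beta1 all 30 Myc target genes lie above 0, with a median of 0.51, while the Osm medians lie between -0.13 and 0.15.

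Of the 10 genes, 3 passed 1.5-fold in at least 1 comparison, and the genes nearest to them in pattern were looked up among 8822 protein-coding genes with a mean of at least 10 CPM, by the distance in the plane of the log2 ratios of Osm and TGF-beta1 to vehicle, which rests on 3 libraries. Nearest to Cdkn1c was Galnt15, a glycosyltransferase gene, at 43.7, 35.5 and 8.84 CPM with vehicle, Osm and TGF-beta1 (distance 0.041), followed by Selenbp1 (0.19), with 50.9% of windows shared, and Eef1a2 (0.20). Nearest to Cdkn2a was Dpp4, a surface peptidase of adipose progenitors, at 65.0, 44.4 and 35.0 CPM (distance 0.018), followed by Myo18a and Arhgap18 (both 0.13). Dpp4 was also the nearest to Ccnd1 (distance 0.13), followed by Dpep1 and Kansl1l (both 0.20). Kansl1l, at 20.2, 15.2 and 12.3 CPM, is overlapped on the opposite strand by Rpe, at 43.6, 45.7 and 45.5 CPM. With LTO1 on the opposite strand of Ccnd1, likeness to Ccnd1 is uncertain too. The ratios of Cdkn1c and Cdkn2a carry wide counting intervals, so the order of likeness is uncertain.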

How the data were processed

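RNA sequencing counts of 3 libraries, 1 per condition, were analysed, with groups taken from the sample titles. Per the labels' protocols, polyadenylated RNA was copied with random primers, and library types with and without strand information are both described. The authors deposited whole-number read counts per gene, together with FPKM values. Named in the submitters' processing notes are HISAT2, HISAT, TopHat2 and CASAVA, with the build mm39. The read counter and the annotation release are not stated there or in the labels.

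Counts were scaled with the TMM factors of edgeR 4.0.16 (R 4.3.3) to CPM, and the 13712 genes that reached 1 CPM in any library served as background. Log2 ratios used a prior count of 0.5 scaled by library size. Intervals of ratios are exact conditional binomial (Clopper-Pearson) and those of levels exact Poisson, at 95%. No molecular identifiers are described, so intervals cover counting error only. A count of 0 was taken to allow up to 3 counts. The ratio and call code was tested on simulated data. Alternatives used DESeq2 1.42.0 size factors, upper-quartile scaling, column totals, a prior count of 5, the deposited FPKM values (pseudocount 0.1) and other filters. Genes sharing sequence were sought with 50-base windows, 1 every 10 bases, of the longest GENCODE M21 transcript. Other steps ran in Python 3.11.15 (pandas 2.3.3, scipy 1.17.1, matplotlib 3.10.9, numpy 2.4.6).

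The 10 genes and the lists were chosen with earlier results of these data known. All 10 genes are named. From each list were named the members at 5 CPM or more past 2-fold in any comparison and the 2 of highest mean level, and, for each of the 10 genes past 1.5-fold, the 3 protein-coding genes nearest in pattern at a mean of 10 CPM or more. Motifs were searched on both strands of the 250 bases before each RefSeq start.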

Additional observations from a re-analysis of the deposited data

How the results depend on the processing

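For each of the 10 genes, every log2 ratio under the other scalings, a prior count of 5 and the deposited FPKM values stayed within the counting interval of the reported value (150 of 150), and no scaling moved the median of all tested genes by 0.1 or more on the log2 scale. DESeq2 size factors turned the count of the 10 genes at least 1.5-fold lower with Osm than with TGF-beta1 from 0 to 1 (Ccnd2). With the same factors the Cdkn1a interval for the lower level with TGF-beta1 than with vehicle included 1 (0.999 to 1.10). Upper-quartile scaling took the Cdkn1a interval for Osm over TGF-beta1 past 1 (1.00 to 1.10). Keeping only genes with at least 10 CPM moved the list medians of G2 and mitosis genes to 0.0399 for Osm over vehicle, 0.65 for TGF-beta1 over vehicle and -0.63 for Osm over TGF-beta1, that of CDKs and other cyclins for Osm over vehicle to -0.0011 and that of Rb and E2F genes for Osm over TGF-beta1 to -0.0604, since fewer genes were left.

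The counts over all genes depended on the filter. With at least 10 CPM, the numbers at least 2-fold higher and lower were 7 and 7 for Osm over vehicle (130 and 89 as reported), 93 and 228 for TGF-beta1 over vehicle (311 and 657) and 226 and 107 for Osm over TGF-beta1 (696 and 332). At 1.5-fold they were 29 and 35 (288 and 228), 396 and 616 (823 and 1307) and 610 and 408 (1361 and 845). For Osm over vehicle at 2-fold, genes with any count gave 237 and 231, protein-coding genes 48 and 54 and a prior count of 5 gave 82 and 59. At 1.5-fold, genes with any count gave 370 lower and protein-coding genes 152 higher.

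No paired analysis was possible because each condition has 1 library, and leaving out a replicate was not run for the same reason. Cdkn1c and Cdkn2a rest on 16 to 90 counts per library, so their folds are the least precise.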
